A study of Mus musculus with 7 samples.

Results

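Messenger RNA of 9 ganglioside synthesis enzymes was followed in the cortex of APP/PS1 mice kept on a ketogenic diet (KD) or a control diet (CD). The members were Ugcg, St3gal5, St8sia1, St8sia5, St8sia3, B4galnt1, B3galt4, St3gal2 and St6galnac5, which were found by their symbols among the 23413 symbols of the count tables. All 9 were present and all 9 passed the filter on low counts, which kept 15881 genes. The list was selected on an earlier look at the same contrast, in which St8sia1 had the smallest raw p-value among the genes lower in KD. The KD against CD values of the members are therefore given as a description, without a test.

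Cortex RNA was sequenced from 7 mice, 4 on CD and 3 on KD, each library being from 1 mouse. Every mouse carried the APPswe and PSEN1dE9 transgenes, which give mutant human amyloid precursor protein and presenilin, and no library came from a mouse without them. The diets began at 6 months of age, and the mice were 13 months old after 7 months of feeding. CD gave 74% of its energy as carbohydrate, 16% as fat and 10% as protein, and KD gave less than 0.5% as carbohydrate, 90% as fat and 10% as protein. The deposited labels write SD for the diet called CD here. The sex of each mouse is not given, although both sexes were used in the study.

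Gangliosides are sphingolipids whose sugar chains carry sialic acid, and they are abundant in the outer leaflet of neuronal membranes. Synthesis begins with glucosylceramide, continues through lactosylceramide to GM3, and then divides into series according to how many sialic acids are attached before the chain is lengthened. In the adult mammalian brain the main products are GM1, GD1a, GD1b and GT1b, which contribute to membrane domains and, for GD1a and GT1b, to the binding of myelin to axons.

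The enzymes fall into 3 kinds of step. Ugcg, the glucosylceramide synthase, supplies the chain. St3gal5 (GM3 synthase), St8sia1 (GD3 synthase) and St8sia5, which adds further sialic acids, set the series, and St8sia3 is a related sialyltransferase that acts on glycoproteins as well as on glycolipids. B4galnt1 (GM2/GD2 synthase), B3galt4 (GM1/GD1b synthase) and St3gal2 lengthen and cap the chain, and St6galnac5 adds sialic acid to an inner sugar to give the alpha-series ganglioside GD1alpha.

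St3gal5 and St8sia1 act one after the other at the point where the series divide, and their start regions are shown for that reason. Both were taken from RefSeq (build GRCm38.p6), and start regions were used for 4 of the 9 members only. Each stretch holds 250 bases before and 50 after the start and reads 5′ to 3′ on the strand of the gene. Capitals mark CCAAT and GGGCGG on either strand, ATTGG and CCGCCC being the same letters read on the other strand. The St8sia1 stretch lies on the minus strand at chr6:142964403-142964702, and that of St3gal5 on the plus strand at chr6:72097358-72097657.
St8sia1: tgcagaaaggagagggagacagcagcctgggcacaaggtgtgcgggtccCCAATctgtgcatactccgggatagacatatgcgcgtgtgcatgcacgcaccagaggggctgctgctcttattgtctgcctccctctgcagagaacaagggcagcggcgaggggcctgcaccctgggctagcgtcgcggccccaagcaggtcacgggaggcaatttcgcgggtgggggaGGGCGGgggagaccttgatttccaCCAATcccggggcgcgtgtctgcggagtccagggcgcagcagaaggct
St3gal5: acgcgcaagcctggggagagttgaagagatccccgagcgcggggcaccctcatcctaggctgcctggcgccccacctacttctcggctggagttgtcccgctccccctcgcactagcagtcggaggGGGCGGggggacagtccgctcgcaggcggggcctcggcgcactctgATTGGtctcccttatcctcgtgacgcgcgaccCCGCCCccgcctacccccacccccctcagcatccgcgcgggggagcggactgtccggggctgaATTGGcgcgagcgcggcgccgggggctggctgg
St8sia1 held 2 CCAAT and 1 GGGCGG matches, with 64.7% G and C and 19 CpG. St3gal5 held 2 of each, with 72.7% G and C and 33 CpG. TATAAA, searched in the same way, was in neither. Of 32851 start regions of this length, 37.4% held CCAAT, 35.7% GGGCGG and 13.6% TATAAA, so these letters are common and no site is implied.

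The libraries held from 22272883 to 36614954 counts, and the smaller totals were in KD (replicates 1 and 3). The cortical excitatory neuron markers were detected in every library, among them Slc17a7, the vesicular glutamate transporter, at 445 to 630 CPM (counts scaled to the same total in every library). Of the 7 libraries, 4 stood apart in a marker list. In CD replicate 3 and KD replicate 3 the 10 oligodendrocyte markers summed to 1227 and 1260 CPM, against 4122 to 4652 CPM in the other CD libraries, 4573 CPM in KD replicate 1 and 2342 CPM in KD replicate 2. CD replicate 1 held 452 CPM over 5 choroid plexus markers, against 10.6 to 70.7 CPM elsewhere. CD replicate 4 held 64.4 CPM over 4 olfactory bulb markers, against 3.42 to 16.4 CPM elsewhere, and KD replicate 3 held 87.9 CPM over 6 ventral forebrain markers, against 2.62 to 5.93 CPM. On the first principal component 2 libraries, CD replicate 4 (39.5) and KD replicate 3 (46.7), lay away from the rest, which ran from -25.2 to 2.39. In bulk tissue, fewer cells of a type and less RNA per cell cannot be told apart.

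Across all 15881 tested genes, edgeR's quasi-likelihood test returned 0 genes under an adjusted p-value (Benjamini-Hochberg) of 0.05, and the smallest was 0.979. With this test 506 genes had a raw p-value under 0.05, and 51 genes, or 0.321% of those tested, had one of at most 0.01. DESeq2 and limma-voom also returned 0 genes at the adjusted threshold, with 585 and 446 genes at a raw p-value under 0.05, and edgeR's likelihood-ratio test returned 1, Xlr4a.

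Among the members, 8 had a log2 fold change below 0 and 1 above, with a median of -0.06, against a median of -0.0033 over all tested genes. In 6 of the 9 the size of the log2 fold change was below the median size over all tested genes, 0.12. The CPM of the KD libraries lay entirely below those of CD in 2 members, St8sia1 and St8sia5, where 2.56% of all tested genes did so. In 0 members did KD lie entirely above CD, where 1.64% of all tested genes did so, and in either direction the share was 4.2%. The difference of St8sia1 was the basis of the list, so nothing is read from these counts.

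St8sia1 makes GD3 from GM3 and so opens the b-series. Its locus is on chromosome 6 of mm10 from 142821545 to 142964452, on the minus strand. It had 87.2, 82.7, 83.9 and 101 CPM in CD replicates 1 to 4, and 69.9, 66.2 and 64.4 CPM in KD replicates 1 to 3. Every KD library was below every CD library, and the gap between the groups, from 69.9 to 82.7 CPM, was wider than the whole KD range. The means were 88.6 ± 8.29 CPM (SD, n = 4) in CD and 66.8 ± 2.83 CPM (SD, n = 3) in KD, a difference of -24.6%. The log2 fold change was -0.39 with a standard error of 0.08. It lay between -0.43 and -0.35 when any 1 library was left out, and was -0.30 without CD replicate 4 and KD replicate 3.

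**Figure D1:**
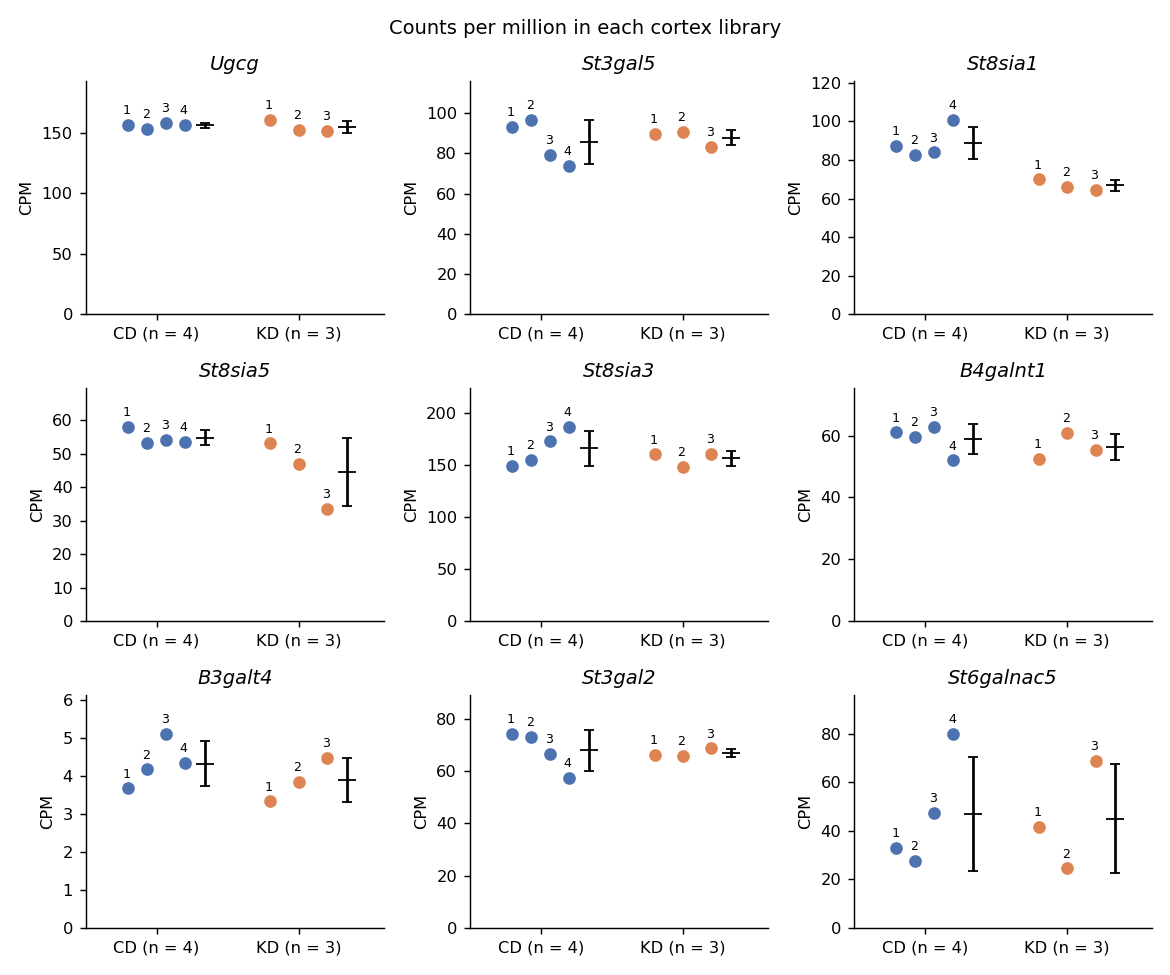
CPM of each enzyme gene in the 7 cortex libraries, with the CD libraries in blue, the KD libraries in orange, the replicate number above each point, and a bar for the mean and SD of each group. St8sia1 is lower in each KD library (64.4 to 69.9 CPM) than in any CD library (82.7 to 101 CPM), whereas St6galnac5 ranges from 24.5 to 80.1 CPM and its groups overlap.

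Markers of oligodendrocytes and of fast-spiking interneurons and large axons were also lower in KD by log2 fold change. So were all markers of meningeal fibroblasts (median -0.73), choroid plexus (-0.62) and olfactory bulb (-1.80). In each of these 3 lists 1 CD library stood above the rest. The meningeal sum was 254 CPM in CD replicate 4, against 31.7 to 63.7 CPM in the other CD libraries and 30.2 to 119 CPM in KD. For choroid plexus it was CD replicate 1 (452 CPM, against 25.7 to 48.1 CPM in KD). For olfactory bulb it was CD replicate 4 (64.4 CPM, against 3.42 to 16.4 CPM in KD). All oligodendrocyte precursor and striatum markers, and the 3 tested ventral forebrain markers, had log2 fold changes above 0. The oligodendrocyte precursor sums overlapped (111 to 167 CPM in CD, 111 to 156 CPM in KD). The striatum sums of KD replicates 1 and 2 (150 and 166 CPM) were inside the CD range (119 to 176 CPM), and KD replicate 3 had 296 CPM. Likewise, ventral forebrain sums were 2.91 and 2.76 CPM in KD replicates 1 and 2, inside the CD range (2.62 to 5.93 CPM), and 87.9 CPM in KD replicate 3. The oligodendrocyte markers summed to 4573 CPM in KD replicate 1, inside the range of CD, and St8sia1 was 69.9 CPM there. In CD replicate 3, where they summed to 1227 CPM, St8sia1 was 83.9 CPM. The 7 markers of fast-spiking interneurons and large axons were each lower in KD, with sums of 933 to 1259 CPM in CD and 651 to 989 CPM in KD. KD replicates 1 and 3, at 891 and 651 CPM, were below every CD library in that sum, and KD replicate 2, at 989 CPM, was above CD replicate 3 alone. The part of these cells or regions in the St8sia1 difference was not tested.

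St8sia5, which extends chains by further sialic acids, was the other member without overlap in CPM. The gene spans 77185839 to 77258771 of chromosome 18 (mm10). Its level was 58.1, 53.4, 54.2 and 53.6 CPM in CD, and 53.2, 47.1 and 33.4 CPM in KD. The separation was narrow, since KD replicate 1 was below the lowest CD library by 53.2 against 53.4 CPM, and with TMM scaling the groups overlapped. The means were 54.8 ± 2.24 CPM (SD, n = 4) and 44.6 ± 10.1 CPM (SD, n = 3), with a log2 fold change of -0.29 and a standard error of 0.15. The value rested on KD replicate 3, the library with the highest ventral forebrain and the lowest fast-spiking marker sums. Without that library the log2 fold change was -0.11.

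St8sia3, the other sialyltransferase of this family, lies on chromosome 18 from 64254359 to 64279611. It had 149, 155, 172 and 187 CPM in CD and 160, 148 and 160 CPM in KD. The groups overlapped, with KD replicate 2 just below the lowest CD library and CD replicate 4 the highest. The log2 fold change was -0.07 with a standard error of 0.09.

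Ugcg, which makes the glucosylceramide from which the gangliosides of this pathway are built, was the steadiest member. It had 157, 154, 158 and 157 CPM in CD and 161, 153 and 152 CPM in KD. The highest library exceeded the lowest by a factor of 1.06, and the log2 fold change was -0.0013 with a standard error of 0.07. Its biological coefficient of variation, the spread between replicates in edgeR's fit, was 10.4%, and only 0.865% of the 1271 tested genes of similar level (within 0.5 of its mean log2 CPM) had a lower one.

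St3gal5, whose product GM3 is the branch point of the series, was the 1 member with a log2 fold change above 0. It had 93.3, 96.6, 79.1 and 73.5 CPM in CD and 89.6, 90.6 and 83.3 CPM in KD. The 3 KD values fell inside the range of CD, where replicates 3 and 4 were the lowest. The log2 fold change was 0.04 with a standard error of 0.12, and it was -0.04 without CD replicate 4.

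Among the enzymes that lengthen and cap the chain, no member separated the diets. B4galnt1, needed for all complex gangliosides, had 61, 59.7, 62.9 and 52 CPM in CD and 52.5, 60.9 and 55.4 CPM in KD. CD replicate 4 and KD replicate 1 were the lowest, and the log2 fold change was -0.06 with a standard error of 0.11.

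St3gal2, which caps GM1 and GD1b to give GD1a and GT1b, had 74.4, 73.2, 66.6 and 57.5 CPM in CD and 66.3, 65.9 and 68.7 CPM in KD. The KD values fell in the middle of the CD range, with a log2 fold change of -0.01 and a standard error of 0.11. B3galt4, which adds the galactose of GM1 and GD1b, was the least abundant, with 78 to 168 counts per library against at least 745 for any other member. It had 3.68, 4.18, 5.12 and 4.34 CPM in CD and 3.34, 3.85 and 4.49 CPM in KD. The groups overlapped, with a log2 fold change of -0.15 and a standard error of 0.19.

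St6galnac5 varied most between libraries and did so within each diet. It lies on chromosome 3 from 152817081 to 152982246 and had 32.9, 27.7, 47.5 and 80.1 CPM in CD and 41.7, 24.5 and 69.0 CPM in KD. CD replicate 4 and KD replicate 3 were the highest, and the lowest library of each diet differed from its highest by a factor of 2.90 in CD and 2.81 in KD. The biological coefficient of variation was 37.5%, above that of 98.4% of the 2427 tested genes of similar level. The log2 fold change was -0.05 with a standard error of 0.41, and it ran from -0.48 without KD replicate 3 to 0.31 without CD replicate 4.

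The libraries in which St6galnac5 was highest also held the largest sums of the olfactory bulb, meningeal fibroblast, oligodendrocyte precursor and ventral forebrain markers. The olfactory bulb markers summed to 64.4 CPM in CD replicate 4 and 16.4 CPM in KD replicate 3, against at most 8.79 CPM elsewhere. All 4 were highest in CD replicate 4. In KD replicate 3, Cdhr1 alone gave 12.9 CPM. Eomes (0.404 CPM) and Doc2g (2.11 CPM) were lower there than in CD replicate 3 (0.915 and 2.75 CPM). Th (0.943 CPM) was lower there than in CD replicate 1 (1.80 CPM). The meningeal fibroblast markers summed to 254 and 119 CPM in the same libraries, against 30.2 to 63.7 CPM elsewhere. The 4 oligodendrocyte precursor markers summed to 167 and 156 CPM, against 111 to 134 CPM elsewhere. The ventral forebrain markers summed to 5.93 CPM in CD replicate 4 and 87.9 CPM in KD replicate 3, against 2.62 to 4.15 CPM elsewhere. The 8 cortical excitatory neuron markers went the other way, with the lowest sums in these libraries. They were 1350 CPM in CD replicate 4 and 1564 CPM in KD replicate 3, against 1725 to 1982 CPM elsewhere. The part of these regions or cells in the St6galnac5 values was not tested.

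**Figure D2:**
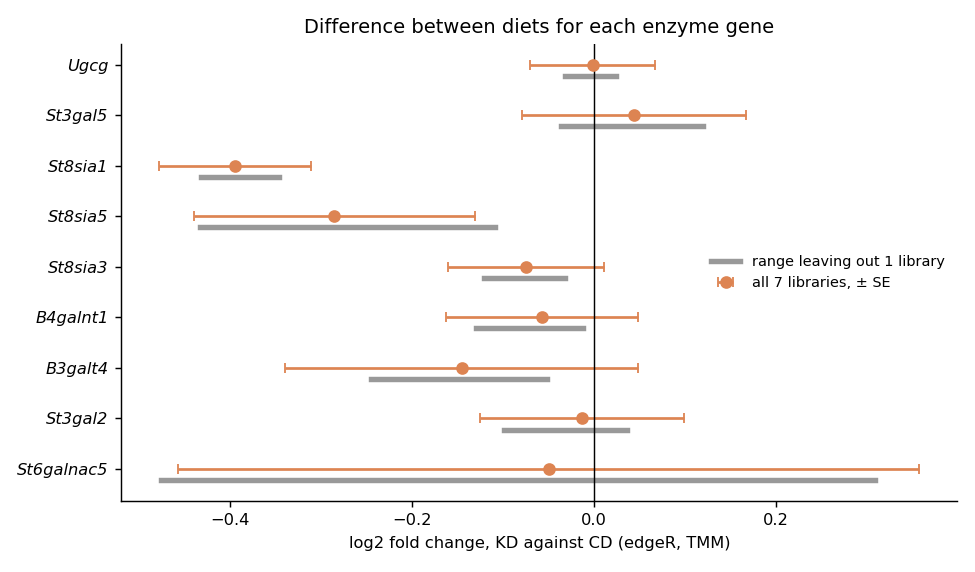
Log2 fold change of KD against CD for each enzyme gene, as points with the standard error from the fit to all 7 libraries, with a grey bar for the lowest and highest value when any 1 library is left out. St8sia1 stays between -0.43 and -0.35, St8sia5 reaches -0.11 without KD replicate 3, and St6galnac5 lies on both sides of 0.

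Ratios of counts between members within a library do not depend on how libraries are scaled. They are not corrected for gene length (9341 exon bases for St8sia1, 2618 for St3gal5), so they compare libraries and not the amounts of 2 transcripts. The St8sia1 count per St3gal5 count was 0.934, 0.856, 1.06 and 1.37 in CD and 0.780, 0.731 and 0.773 in KD. The KD ratios were all below those of CD, with means of 0.761 ± 0.027 (SD, n = 3) and 1.06 ± 0.226 (SD, n = 4). The St8sia1 count per B4galnt1 count was 1.43, 1.38, 1.33 and 1.94 in CD and 1.33, 1.09 and 1.16 in KD, where KD replicate 1 and CD replicate 3 differed only at the third decimal (1.333 against 1.335). The ratios of St8sia5 to St8sia1 and of St3gal5 to Ugcg overlapped between the diets, with means of 0.664 and 0.566 in KD and 0.623 and 0.548 in CD. These ratios hold the same contrast as the list and carry no test.

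The members were also ordered by level over both diets together. Counts were divided by the total exon length of each gene in kilobases and scaled as for CPM, giving RPKM. St3gal5 was the highest, at 33.1 ± 3.14 (SD, n = 7), followed by Ugcg at 29.9 ± 0.625. Next came B4galnt1 at 16.7 ± 1.28, St8sia3 at 13.8 ± 1.17, St3gal2 at 13.4 ± 1.1, St8sia5 at 9.28 ± 1.5, St8sia1 at 8.49 ± 1.41, St6galnac5 at 7.70 ± 3.52 and B3galt4 at 2.62 ± 0.373.

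St8sia1 was above St6galnac5 in the CD means (9.49 and 7.84) and below it in the KD means (7.15 and 7.51). The KD order rested on KD replicate 3 (6.89 against 11.5). St8sia1 was the higher in KD replicate 1 (7.49 against 6.95) and KD replicate 2 (7.08 against 4.09), and the lower in CD replicate 4 (10.8 against 13.3). Its difference between the diets chose the list, so the pairs with St8sia1 are given without a test.

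Neighbours in this order were compared within libraries by a two-sided exact sign-flip permutation test, adjusted over the 8 pairs. The 8 include the pairs with St8sia1. The order came from the means of the same 7 libraries, so the choice of pairs and their direction were not independent of the data tested. In 3 pairs the higher member was higher in 7 of 7 libraries with an adjusted p of 0.0417 in the exact permutation test, whose smallest raw p is 0.0156. These were Ugcg over B4galnt1 by 0.84 on the log2 scale, St3gal2 over St8sia5 by 0.54 and St6galnac5 over B3galt4 by 1.44. B4galnt1 was above St8sia3 by 0.28 in 6 of 7 libraries, with an adjusted p of 0.0625 in the exact permutation test. The differences of St3gal5 from Ugcg and of St8sia3 from St3gal2 were within their spread, with adjusted p-values of 0.100 and 0.688 in the exact permutation test. St8sia5 was above St8sia1 in 5 of 7 libraries, and St8sia1 above St6galnac5 in 5 of 7. With the length of the longest transcript in place of the exon total, Ugcg (38.9) stood above St3gal5 (35.5), and B4galnt1 was above St8sia3 by 0.54 in 7 of 7 libraries with an adjusted p of 0.0312 in the exact permutation test, so the call on that pair depends on the length used.

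**Figure D3:**
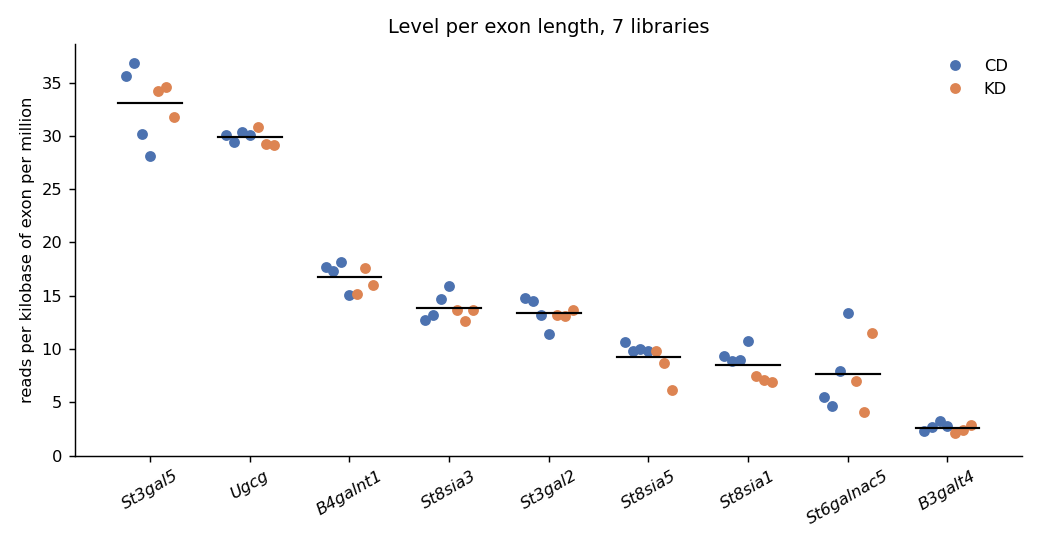
RPKM (exon length) of each enzyme gene, with 1 point per library (CD in blue, KD in orange) and a line for the mean of 7 libraries. The genes run from St3gal5 at 33.1 to B3galt4 at 2.62, and the points of St6galnac5, from 4.09 to 13.3, cross those of its neighbours.

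Because oligodendrocyte RNA differed between libraries, the level of each member was set against the mean log2 CPM of the 10 oligodendrocyte markers over the 7 libraries, which gave 9 relations. The permutations ignore diet, in which both the markers and most members differ in mean, and the relation of St8sia1, whose diet difference chose the list, is not given. None passed an adjusted p of 0.05 in the exact permutation test. St8sia5 had Pearson's r = 0.65 (exact permutation p = 0.0732, adjusted p = 0.343) and Spearman's rho = 0.61 (exact permutation p = 0.167, adjusted p = 0.500). Without CD replicate 3 and KD replicate 3, the libraries farthest from the median of the markers, r was 0.91, and without CD replicate 3 alone it was 0.98 (exact permutation p = 0.00417, adjusted p = 0.0375). It was 0.30 (exact permutation p = 0.521, adjusted p = 0.936) without KD replicate 3, so 1 library moved the relation in either direction.

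B3galt4 had the most negative relation, with r = -0.71 (exact permutation p = 0.0762, adjusted p = 0.343) and rho = -0.64 (exact permutation p = 0.139, adjusted p = 0.500), and r was -0.06 without the same 2 libraries.

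**Figure D4:**
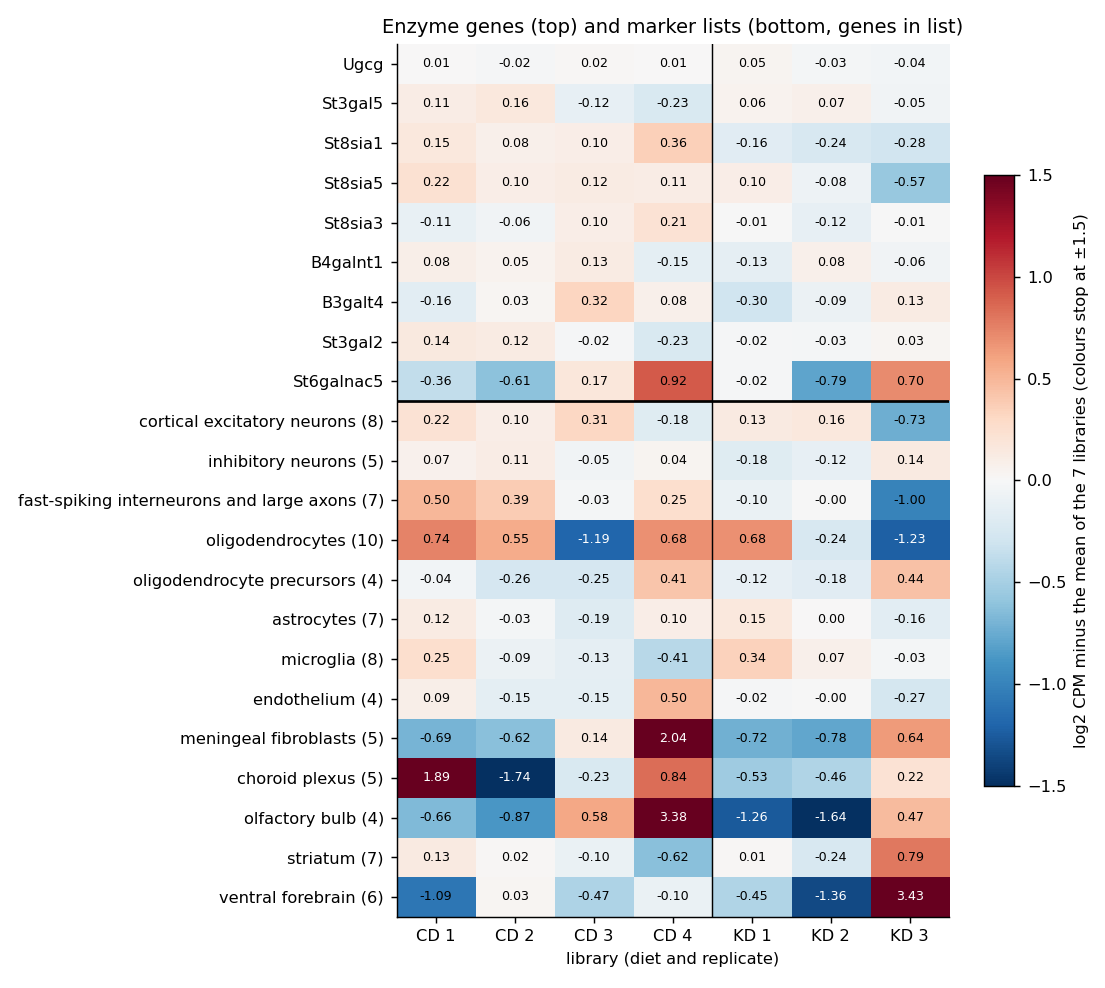
Log2 CPM of the 9 enzyme genes (top) and mean log2 CPM of 13 marker lists (bottom), each as the difference from its mean over the 7 libraries, with the number of genes in each list in parentheses. St8sia1 is above its mean in the 4 CD libraries and below it in the 3 KD libraries, and St6galnac5 is high in CD replicate 4 and KD replicate 3, the libraries in which the meningeal fibroblast list is highest.

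The genes whose pattern over the 7 libraries was most like that of St8sia1 were Ptprh, a receptor-type tyrosine phosphatase (r = 0.98), Klrg2 (r = 0.97) and Capn1, the catalytic subunit of a calcium-dependent protease (r = 0.97). They were the closest of 15880 genes, so high values of r are given as a description. Ptprh had 1.89 to 3.41 CPM in CD and 1.15 to 1.24 CPM in KD, and Capn1 had 20.7 to 27.2 CPM in CD and 16.9 to 18.2 CPM in KD. Klrg2 was near the floor, with 0.401 to 0.792 CPM in CD and 0.135 to 0.299 CPM in KD, so its r rests on few reads.

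The rest of the pathway was described with a list of 59 genes, of which 57 passed the filter on low counts. In edgeR's quasi-likelihood test 0 of the 57 had an adjusted p-value under 0.05 and 0 had a raw p-value under 0.05, and DESeq2, limma-voom and the likelihood-ratio test also gave 0 at both thresholds. The log2 fold change was above 0 in 22 genes and below 0 in 35, with a median of -0.03. The CPM of the diets did not overlap in 2 genes, or 3.51%, which is near the 4.2% of all tested genes. These were Gne, the enzyme that starts sialic acid synthesis, with 39.6 to 43.8 CPM in CD and 38.0 to 39.3 CPM in KD, and Hexa, a subunit of the lysosomal hexosaminidase that degrades GM2, with 68.7 to 76.1 CPM in CD and 76.6 to 85.2 CPM in KD.

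Genes that supply ceramide and lactosylceramide had 6 of 11 log2 fold changes above 0, from -0.17 to 0.13, with a median of 0.01. The lactosylceramide synthase B4galt6 had 175 to 201 CPM in CD and 169 to 236 CPM in KD. Genes that supply sialic acid and nucleotide sugars were split 4 to 4, with a median of 0.0027. Cmas, which activates sialic acid, had 92.3 to 98.3 CPM in CD and 91.6 to 119 CPM in KD.

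Of the other sialyltransferases, 5 of 13 were above 0 and the median was -0.03. St3gal3, which mainly sialylates glycoproteins, had 38.1 to 44.5 CPM in CD and 30.9 to 38.1 CPM in KD, with a log2 fold change of -0.24 (standard error 0.11). The genes of ganglioside breakdown had 6 of 16 above 0, with log2 fold changes from -0.15 to 0.22 and a median of -0.02. The sialidase Neu1, which acts in lysosomes, had 47.1 to 55 CPM in CD and 47.7 to 51.7 CPM in KD. The sphingolipid activator precursor Psap was the most abundant, at 1401 to 1595 CPM in CD and 1385 to 1543 CPM in KD.

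The other branches of glycosphingolipid synthesis were lower in KD in 8 of 9 genes, with a median of -0.33. Over all tested genes, 49.0% were higher in KD. The median gene of these branches, B3gnt5, had 1.01 to 1.56 CPM in CD and 0.898 to 1.28 CPM in KD. A4galt (log2 fold change -0.52) had 9.78 CPM in CD replicate 4, against 2.24 to 4.09 CPM in the other CD libraries. Among the genes of these branches were the enzymes that make the myelin lipids galactosylceramide and sulfatide. Ugt8a, the galactosylceramide synthase, had 104, 84.4, 39.9 and 111 CPM in CD and 138, 63.7 and 40.1 CPM in KD, and the 2 lowest libraries were those with the lowest oligodendrocyte marker sums. Gal3st1, the sulfatide synthase, had 3.05 to 6.17 CPM in CD and 2.65 to 4.79 CPM in KD. The log2 fold change was -0.05 (standard error 0.45) for Ugt8a and -0.59 (standard error 0.32) for Gal3st1. All 10 oligodendrocyte markers were lower in KD, with a median log2 fold change of -0.42 and sums of 1227 to 4652 CPM in CD and 1260 to 4573 CPM in KD, and their part in these values was not tested. The pathway genes named in the account of the rest of the pathway were chosen after their values were seen, other than Gne and Hexa.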

How the data were processed

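RNA from 10 mg of frozen cortex per mouse was made into stranded total RNA libraries, with paired reads of 50 bases. STAR alignment to mm10 was done by the authors, who deposited raw counts per gene symbol, 1 file per mouse, without normalization. The annotation and strand setting are not given in the sources used here, so the opposite-strand genes that overlap exons of B4galnt1, St6galnac5, St8sia1, St8sia3 and St8sia5 may share reads with them.

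CPM was computed from the total of each library. KD was compared with CD by edgeR 4.0.16 in R 4.3.3 (filterByExpr, TMM, glmQLFit with robust=TRUE, glmQLFTest, no covariate), with Benjamini-Hochberg adjustment over 15881 genes. TMM factors ran from 0.978 to 1.04. The standard error is that of the log2 fold change. Exon lengths and coordinates came from GENCODE M21 (mm10). Correlations used log2 CPM with 0.5 added to the counts. The edgeR fit was also run on simulated counts with known fold changes. DESeq2 1.42.0, limma 3.58.1, other scalings and filters, an Xist covariate, a replicate block and the omission of libraries were alternatives, and the omission of CD replicate 4 with KD replicate 3 was added after the data were seen.

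The members and gene lists were chosen with earlier results of these data known. By rule, the named genes are the members, pathway genes without overlap between diets or at raw p of 0.01 or less, the 3 genes most like St8sia1 and markers. The other pathway genes named, Xlr4a, Kdm5d, Rmst, Crim1 and Igsf3 were named after their values were seen. Col4a3bp and Drd1a stand for Cert1 and Drd1. Labels give separate mice as replicates. Of the pathway list, Cers1 and St6galnac1 were not tested. No pairing by replicate number was used in the comparison.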

Additional observations from a re-analysis of the deposited data

Results flagged for a closer look

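In the CD group of 4 libraries, 27 values (9 members, 13 marker lists and 5 pathway groups) were searched for a single library that stood away from its group, using Dixon's ratio, in which the distance to the closest library is divided by the group's range. Chance gives about 1.4 of 27, and 1 passed the 95% critical value. The mean log2 CPM of the 10 oligodendrocyte markers was 5.93 in CD replicate 3 against 7.67 to 7.86 in the other CD libraries, which gave a ratio of 0.903. No member passed.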

How the results depend on the processing

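The log2 fold changes of St8sia1, St8sia5, St8sia3, B4galnt1 and B3galt4 were below 0 under all 18 alternatives, and those of Ugcg, St3gal5, St3gal2 and St6galnac5 were on both sides of 0. The median over the 9 members ran from -0.12 to -0.03. The count of 51 genes at a raw p of at most 0.01 was 120 with DESeq2, 103 with the likelihood-ratio test, 227 with Xist as a covariate and 19 to 211 when 1 library was left out (without CD replicate 1 and CD replicate 3). It was 54 without CD replicate 4 and KD replicate 3. At the adjusted threshold the likelihood-ratio test gave 1 gene, Xlr4a, and the Xist covariate gave 1 gene, Kdm5d (log2 fold change -2.84). In the fits without 1 library 0 genes passed. Of the pathway list, 1 gene, St3gal3, reached that raw threshold in edgeR with Xist as a covariate (log2 fold change -0.27). The median of that list was 0.00087 without CD replicate 4 and 0.02 without both CD replicate 4 and KD replicate 3. The cause of these differences was not tested. With 6 libraries the smallest exact permutation p is 0.0312, so 0 of the 8 neighbouring pairs passed when 1 library was left out. With the longest transcript length 4 pairs passed instead of 3. The relation to oligodendrocyte markers passed for 0 to 1 members, the 1 being St8sia5 without CD replicate 3. Members without overlap between the diets numbered 2 in CPM and 1 with TMM or RLE scaling. They numbered 3 without KD replicate 1 and 2 without any other single library, and smaller groups separate more easily. The median log2 fold change of all genes moved by -0.01 with library size alone.

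Deviations from the diet means correlated at 0.25, 0.19 and 0.098 between libraries of equal number, so the numbers were not taken as a pairing. With a replicate block (numbers 1 to 3 of each diet), the raw p was at most 0.01 in 182 genes, and the log2 fold change was -0.35 for St8sia1, -0.34 for St8sia5, -0.03 for St3gal5 and 0.23 for St6galnac5. At 78 to 168 counts per library, B3galt4 is the member whose depth limits it most.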

Other observations

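Each pair of members was correlated over the 7 libraries. Of 36 pairs, 5 had a raw exact permutation p under 0.05 and 0 an adjusted one. The permutations ignore diet, and the 36 include the pairs with St8sia1, whose diet difference chose the list. St3gal5 and St8sia3 had r = -0.91 (exact permutation p = 0.00476, adjusted p = 0.171) and rho = -0.86 (exact permutation p = 0.0238, adjusted p = 0.214), with r = -0.52 without CD replicates 3 and 4 and -0.81 without CD replicate 4 alone. St3gal5 and St6galnac5 had r = -0.86 (exact permutation p = 0.0159, adjusted p = 0.209) and rho = -0.86 (exact permutation p = 0.0238, adjusted p = 0.214), with r = -0.84 without the same libraries. CD replicate 4 was lowest in St3gal5 (73.5 CPM), St3gal2 (57.5 CPM) and B4galnt1 (52 CPM) and highest in St8sia1 (101 CPM), St8sia3 (187 CPM) and St6galnac5 (80.1 CPM).

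The genes most like St6galnac5 over the 7 libraries, looked up after its values were seen, were the long non-coding RNA Rmst (r = 0.99), Crim1 (r = 0.99) and Igsf3 (r = 0.98). Rmst had 15.0, 12.4, 23.2 and 39.2 CPM in CD and 19.2, 13 and 34.8 CPM in KD, and Crim1 had 51.0 to 155 CPM in CD and 44.9 to 125 CPM in KD.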
